A study of Mus musculus with 9 samples.

Results

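Integrins are the cell-surface receptors by which a cell holds on to its surrounding matrix, and each is a pair of an α and a β subunit encoded by separate genes. The 10 genes described here, Itga3, Itga5, Itga6, Itga7, Itga9, Itgav, Itgb1, Itgb3, Itgb4 and Itgb5, were chosen by symbol as integrin subunits and are 10 of 24411 genes in the deposited tables. They were measured in 9 RNA-seq libraries of EB5 mouse embryonic stem cells: 3 of Zfp352/Zfp353-DKO cells, in which both zinc finger genes Zfp352 and Zfp353 were deleted with CRISPR-Cas9, 3 of Zfp352-KO cells, in which Zfp352 alone was deleted, and 3 of unedited Parental cells. EB5 is a male line made from E14tg2a cells of the 129Ola strain, and every group, the Parental cells included, carries its Oct3/4IRES-BSD-pA/+ allele and grew on gelatin in medium with serum and leukemia inhibitory factor. How many clones stand behind each genotype, and whether replicates are separate cultures, is not stated in the labels, so every p-value reflects variation among these libraries alone, some of which could be technical. Libraries held 16599004 to 22044820 expected counts.

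The α subunit largely sets which matrix protein is bound, and the β subunit links the receptor to the actin cytoskeleton through talin and kindlin. β1 joins with α3, α5, α6, α7, α9 and αv, among others, while β3 and β5 pair with αv, and β4 pairs with α6 in the hemidesmosome, an anchor of epithelial cells. Mouse embryonic stem cells make fibronectin and laminins and bind them mainly through β1 integrins, and signals from these receptors bear on whether the cells self-renew or differentiate.

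The genotype labels and the cell type were checked first. Zfp352 averaged 0.0733 ± 0.0577 TPM (a transcript level normalised for length and depth) in Zfp352/Zfp353-DKO cells, 0.293 ± 0.126 TPM in Zfp352-KO cells and 1.86 ± 0.162 TPM in Parental cells (SD, n = 3 each), a log2 fold change of -4.64 in Zfp352/Zfp353-DKO (edgeR adjusted p = 8.0e-07) and -2.65 in Zfp352-KO cells (edgeR adjusted p = 6.1e-05). Zfp353 was not found in the deposited tables, so the second deletion could not be checked and rests on the labels. The 8 embryonic stem cell markers summed to 6648 to 6743 TPM in Zfp352/Zfp353-DKO, 6540 to 6703 TPM in Zfp352-KO and 6615 to 6748 TPM in Parental libraries. Dppa5a alone averaged 3247 ± 82.7 TPM in Zfp352/Zfp353-DKO, 3214 ± 125 TPM in Zfp352-KO and 3326 ± 21.1 TPM in Parental cells (SD, n = 3 each). Of the 8, 2 rose in Zfp352/Zfp353-DKO cells, Tfcp2l1 by 0.37 and Sox2 by 0.19 on the log2 scale, 1 rose in Zfp352-KO cells, Tfcp2l1 by 0.37, and none fell in either. Over all tested genes, 3.65% rose and 4.82% fell in Zfp352/Zfp353-DKO cells, and 3.43% rose and 3.64% fell in Zfp352-KO cells. Some markers of other cell types differed between genotypes. The 10 fibroblast markers summed to 41.4 to 47.3 TPM in Zfp352/Zfp353-DKO, 55.5 to 65.1 TPM in Zfp352-KO and 89.4 to 101 TPM in Parental libraries, and 5 of the 8 tested members fell in each edited genotype against Parental. The 5 that fell in Zfp352/Zfp353-DKO cells were Acta2, Col1a1, Col1a2, Col3a1 and Tagln. In Zfp352-KO cells they were Acta2, Col1a1, Col1a2, Tagln and Thy1. The Zfp352-KO calls of Acta2 and Thy1 were lost without Zfp352-KO replicate 1 or 2. That of Acta2 was also lost without Parental replicate 3, and that of Thy1 without Parental replicate 1. Acta2, Col1a1, Thy1 and Col1a2 averaged 14.5, 11.9, 6.37 and 6.29 TPM in Parental cells. Lum was listed at 0 in every Zfp352-KO and Parental library. Postn and Dcn averaged 0.383 and 0.133 TPM in Parental cells. Tagln, the largest term of the fibroblast sum, averaged 22.4 TPM in Zfp352/Zfp353-DKO, 31.5 TPM in Zfp352-KO and 51.8 TPM in Parental cells. The 8 trophectoderm markers summed to 156 to 170 TPM in Zfp352/Zfp353-DKO, 182 to 194 TPM in Zfp352-KO and 263 to 305 TPM in Parental libraries, and 4 of 7 tested members fell in each edited genotype. Krt8 and Krt18 held most of this sum. Krt8 averaged 71.6 TPM in Zfp352/Zfp353-DKO, 83.4 TPM in Zfp352-KO and 139 TPM in Parental cells. Krt18 averaged 69.8 TPM in Zfp352/Zfp353-DKO, 83.8 TPM in Zfp352-KO and 120 TPM in Parental cells. The transcription factor genes Cdx2 and Hand1 fell as well. Cdx2, at 1.97 TPM in Parental cells, had log2 fold changes of -1.69 in Zfp352/Zfp353-DKO and -1.27 in Zfp352-KO cells. Its Zfp352-KO call was lost when Parental replicate 1 was left out. Hand1, at 9.02 TPM in Parental cells, had -0.70 in Zfp352/Zfp353-DKO and -0.70 in Zfp352-KO cells. Krt7, Gata3 and Eomes were not called in either edited genotype. The 5 mesoderm markers summed to 1.90 to 2.22 TPM in Zfp352/Zfp353-DKO, 1.42 to 2.5 TPM in Zfp352-KO and 4.18 to 7.16 TPM in Parental libraries. Of the 3 tested, 1 was called lower in each edited genotype, T. Its log2 fold change was -3.09 in Zfp352/Zfp353-DKO and -2.65 in Zfp352-KO cells. The 7 primitive endoderm markers summed to 5.13 to 7.64 TPM in Zfp352/Zfp353-DKO, 4.95 to 6.95 TPM in Zfp352-KO and 5.06 to 6.96 TPM in Parental libraries, and 0 of 6 tested were called in either. The 5 neural progenitor markers summed to 145.7 to 151 TPM in Zfp352/Zfp353-DKO, 144 to 152 TPM in Zfp352-KO and 150.2 to 156 TPM in Parental libraries. Of the 4 tested, 1 was called lower in each edited genotype, Nes. Its log2 fold change was -0.70 in Zfp352/Zfp353-DKO and -0.34 in Zfp352-KO cells.

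All 10 integrin genes passed the filter on low counts. Against Parental cells, Itga3 was lower and Itga9 higher in both edited genotypes, and Itgb1 was called lower in Zfp352/Zfp353-DKO cells. Counts were compared with edgeR's quasi-likelihood test on all 14300 tested genes, and calls needed an adjusted p (Benjamini-Hochberg) under 0.05. In Zfp352/Zfp353-DKO against Parental cells 3 of 10 members were called, 1 higher and 2 lower, where 8.47% of all tested genes were called (3.65% higher and 4.82% lower). In Zfp352-KO against Parental cells 2 of 10 were called, 1 higher and 1 lower, where 7.06% of all tested genes were called (3.43% higher and 3.64% lower). Both comparisons use the same 3 Parental libraries. On the CPM scale, 5 of 10 members (Itga3, Itga5, Itga9, Itgb1 and Itgb4) had Zfp352/Zfp353-DKO libraries that did not overlap those of Parental, as had 28.1% of all tested genes. For Zfp352-KO libraries these were 6 of 10 members (Itga3, Itga5, Itga9, Itgav, Itgb3 and Itgb4) and 27.4% of all tested genes. Some of these margins depend on the scaling. In CPM without TMM scaling, Itgb4 overlapped between Zfp352/Zfp353-DKO and Parental libraries. Itga5 and Itgav then overlapped between Zfp352-KO and Parental libraries. The members' median log2 fold change was -0.06 in Zfp352/Zfp353-DKO and -0.08 in Zfp352-KO cells, against -0.00035 and -0.0089 over all tested genes. Whether an integrin gene is called more often than other genes was not tested, and with 10 members a difference of 1 gene moves the share by 10 percentage points.

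**Figure D1:**
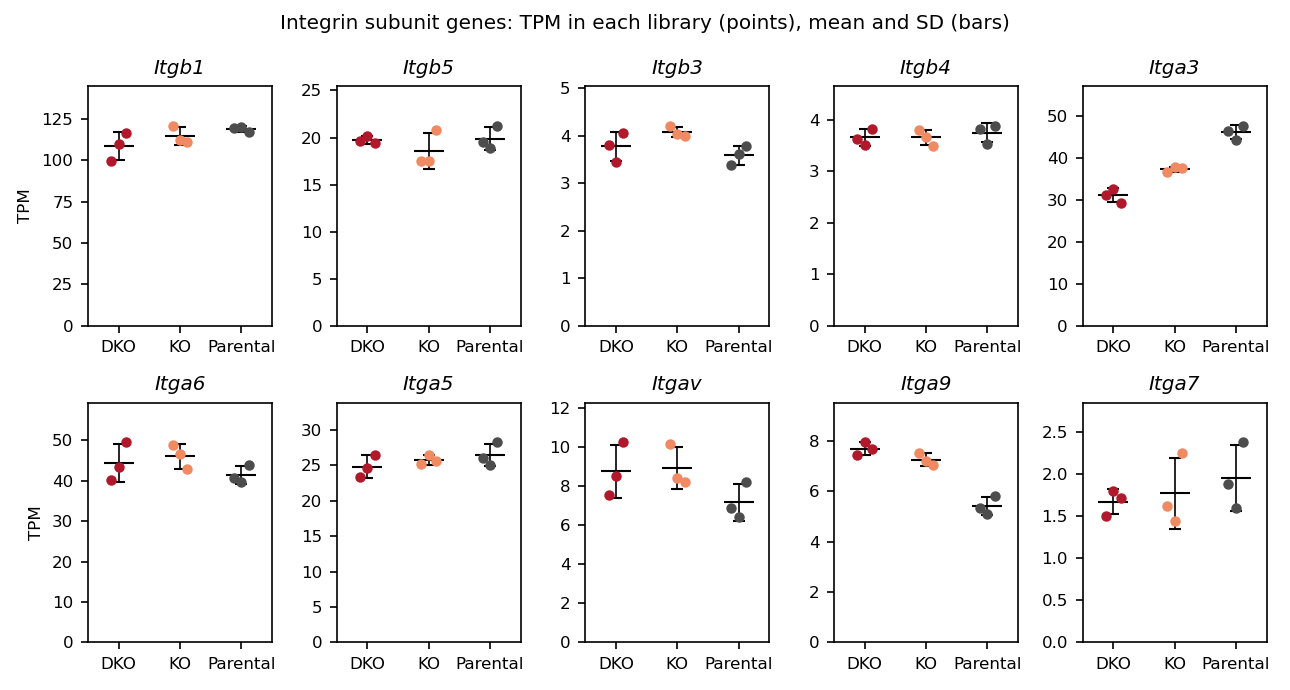
TPM of the 10 integrin subunit genes in each library, with Zfp352/Zfp353-DKO (DKO), Zfp352-KO (KO) and Parental cells from left to right, each panel on its own linear axis that starts at 0. Points are libraries in replicate order and bars are the mean and SD of 3. The 3 genotypes do not overlap for Itga3, and both edited genotypes lie above Parental for Itga9.

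Itga3 encodes α3, which pairs with β1 and binds laminins of basement membranes. It lies on the minus strand at chr11:95044475-95076844 (GRCm38). Its level was 31.2, 32.8 and 29.4 TPM in the Zfp352/Zfp353-DKO libraries, 36.7, 37.9 and 37.6 TPM in the Zfp352-KO libraries and 46.45, 44.4 and 47.7 TPM in the Parental libraries. No library of any genotype reached into the range of another, so the genotypes stood in the order Zfp352/Zfp353-DKO, Zfp352-KO, Parental, low to high. These levels rest on 1358 to 1712 expected counts in Zfp352/Zfp353-DKO, 1525 to 2136 in Zfp352-KO and 2429 to 2656 in Parental libraries. Against Parental, the log2 fold change was -0.61 ± 0.05 in Zfp352/Zfp353-DKO cells (SE, edgeR adjusted p = 5.3e-07) and -0.35 ± 0.05 in Zfp352-KO cells (SE, edgeR adjusted p = 0.00062). Both calls held in all 18 alternative analyses, with a log2 fold change of -0.64 to -0.55 in Zfp352/Zfp353-DKO and -0.36 to -0.32 in Zfp352-KO cells when each library was left out in turn. In bulk RNA, fewer cells of a type and less RNA per cell cannot be told apart. The fibroblast and trophectoderm marker sums given above were ordered by genotype as Itga3 was. Tagln led the fibroblast sum and Krt8 and Krt18 the trophectoderm sum, and the part of either sum in the result was not tested.

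Zfp352/Zfp353-DKO and Zfp352-KO cells were compared directly, since by their labels they differ in the deletion of Zfp353. The edgeR test called 0 of 10 members, where it called 0.105% of all tested genes (15 genes). At an unadjusted p under 0.05 it found 1 member, Itga3, and DESeq2 called the same gene while limma called 0. Itga3 was lower in Zfp352/Zfp353-DKO cells by a log2 fold change of -0.26 ± 0.05 (SE, 95% interval -0.37 to -0.15, edgeR adjusted p = 0.073), and all 3 of its Zfp352/Zfp353-DKO libraries lay below all 3 Zfp352-KO libraries. On the CPM scale, 3 of 10 members (Itga3, Itga9 and Itgb3) and 11.1% of all tested genes had libraries that did not overlap in this comparison. Adjusted p-values for Itga3 ran from 0.0088 to 0.47 over the alternatives. They were under 0.05 with DESeq2 (0.013), with no filter on low counts (0.011) and with the trend on transcript length and GC content removed (0.0088).

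**Figure D2:**
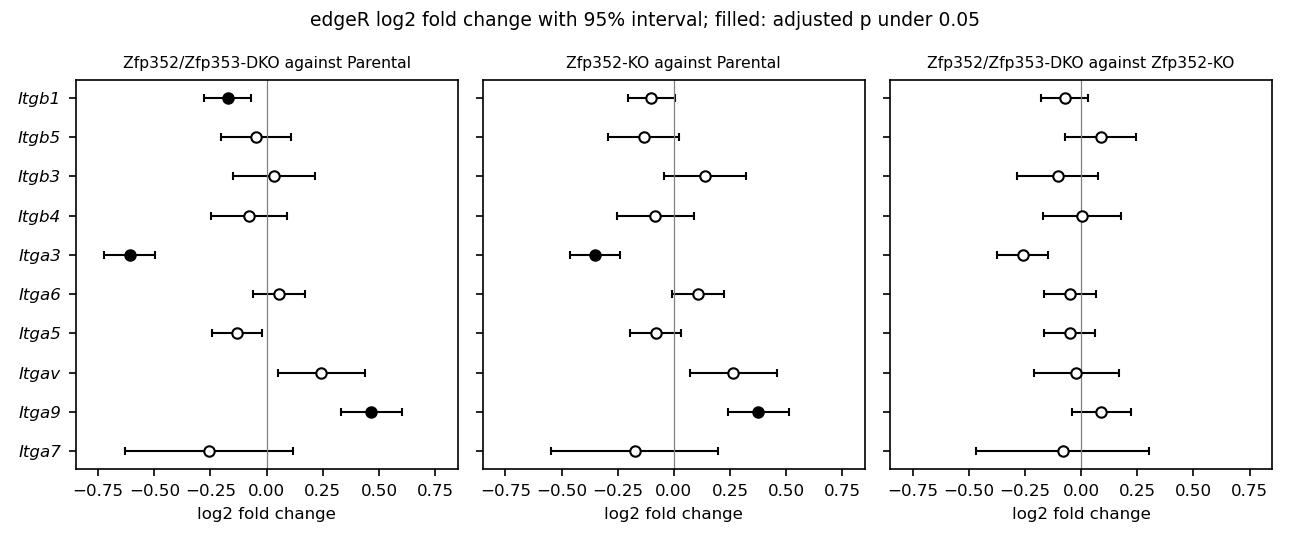
Log2 fold change of the 10 integrin subunit genes from the edgeR fit, in 3 panels for Zfp352/Zfp353-DKO against Parental, Zfp352-KO against Parental and Zfp352/Zfp353-DKO against Zfp352-KO. Bars are 95% intervals and filled points have an adjusted p under 0.05. Itga3 at -0.61 and -0.35 and Itga9 at 0.47 and 0.38 are filled against Parental in both edited genotypes, and no point is filled for Zfp352/Zfp353-DKO against Zfp352-KO.

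The promoters of the 2 members that fell in Zfp352/Zfp353-DKO cells are shown as the sequence next to which their transcription starts. Each is the 250 bases before a RefSeq start site on GRCm38.p6, written 5′ to 3′ in the direction of transcription. Capitals mark GGGCGG, the core letters bound by SP and KLF factors, and GGAATG, those bound by TEAD factors, on either strand. Itga3 has 2 start sites in the RefSeq table, an upstream one (window chr11:95076715-95076964, minus strand) and a downstream one (window chr11:95069199-95069448, minus strand). The Itgb1 window is chr8:128685404-128685653, plus strand.
Itga3 upstream start: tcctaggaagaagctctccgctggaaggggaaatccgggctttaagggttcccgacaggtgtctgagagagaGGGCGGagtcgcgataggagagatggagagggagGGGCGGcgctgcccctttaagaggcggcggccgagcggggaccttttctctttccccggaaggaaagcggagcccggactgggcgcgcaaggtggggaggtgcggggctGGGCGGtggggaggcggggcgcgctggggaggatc
Itga3 downstream start: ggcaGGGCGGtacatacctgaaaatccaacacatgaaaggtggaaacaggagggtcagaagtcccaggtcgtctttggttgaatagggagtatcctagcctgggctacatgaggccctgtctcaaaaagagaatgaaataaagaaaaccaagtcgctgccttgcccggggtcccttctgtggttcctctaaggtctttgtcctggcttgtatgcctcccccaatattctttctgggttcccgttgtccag
Itgb1: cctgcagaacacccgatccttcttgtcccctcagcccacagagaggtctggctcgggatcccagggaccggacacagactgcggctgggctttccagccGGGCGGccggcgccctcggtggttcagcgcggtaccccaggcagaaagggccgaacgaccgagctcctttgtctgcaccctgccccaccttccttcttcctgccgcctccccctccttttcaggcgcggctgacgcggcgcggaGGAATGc
The upstream Itga3 window holds 3 GGGCGG matches, which begin 178, 144 and 35 bases before the start site, and its GC content is 67.6%. The downstream Itga3 window holds 1, and its GC content is 50.8%. The Itgb1 window holds 1 GGGCGG match and 1 GGAATG match, and GGAATG begins 7 bases before the start site. Among 32817 promoter windows of the same length, 32.7% hold GGGCGG, 12.6% hold GGAATG and 6.75% hold TGANTCA, the AP-1 site, on either strand. TGANTCA is in none of the 3 printed windows. Promoters of 6 of 10 members were matched, and the Itgb5 window, a member with no called change, also holds 3 GGGCGG matches. A match describes letters and is not evidence of binding.

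The average Itga3 transcript length, weighted by RSEM over isoforms, was 4810 ± 27.4 bases in Zfp352/Zfp353-DKO, 4815 ± 12.4 in Zfp352-KO and 4822 ± 26.3 in Parental libraries (SD, n = 3 each). The library values of the 3 genotypes overlapped. Itga3 has 3 transcripts in the deposited tables, and a mean length cannot give their mixture, so shifts between isoforms were not resolved.

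Itga9 encodes α9, which pairs with β1 and binds tenascin-C and osteopontin. It lies at chr9:118606709-118901003 (GRCm38), where 4 non-coding genes or pseudogenes overlap it, and without a stated use of strand their reads cannot be told apart from its own. Its level was 7.42, 7.93 and 7.69 TPM in Zfp352/Zfp353-DKO libraries, 7.53, 7.19 and 7.04 TPM in Zfp352-KO libraries and 5.33, 5.09 and 5.82 TPM in Parental libraries. All 6 edited libraries lay above all 3 Parental libraries. The edited genotypes overlapped in TPM but not in CPM, where Zfp352/Zfp353-DKO libraries held 28.1 to 30.2 and Zfp352-KO libraries 26.9 to 27.6. The log2 fold change against Parental was 0.47 ± 0.06 in Zfp352/Zfp353-DKO cells (SE, edgeR adjusted p = 0.00012) and 0.38 ± 0.06 in Zfp352-KO cells (SE, edgeR adjusted p = 0.0020). Both calls held in all 18 alternatives, the removal of the trend on transcript length and GC content among them. Itga9 is 7001 bases long. With that trend removed, its log2 fold change was 0.44 in Zfp352/Zfp353-DKO cells and 0.31 in Zfp352-KO cells. The part of transcript length in the Itga9 values was not tested. Between Zfp352/Zfp353-DKO and Zfp352-KO cells the log2 fold change was 0.09 ± 0.06 (SE, 95% interval -0.04 to 0.22, edgeR adjusted p = 0.90).

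Itgb1 encodes β1, the common partner of most of the α subunits here, and was the most abundant of the 10 transcripts in every genotype. It lies at chr8:128685654-128733579 (GRCm38). Its level was 99.5, 109.7 and 116.6 TPM in Zfp352/Zfp353-DKO libraries, 120.7, 112 and 111 TPM in Zfp352-KO libraries and 119.5, 120.2 and 116.95 TPM in Parental libraries. The highest Zfp352/Zfp353-DKO library, at 116.6 TPM, stood just below the lowest Parental library, at 116.95 TPM, and the Zfp352-KO libraries overlapped both. The log2 fold change against Parental was -0.17 ± 0.05 in Zfp352/Zfp353-DKO cells (SE, edgeR adjusted p = 0.037) and -0.10 ± 0.05 in Zfp352-KO cells (SE, edgeR adjusted p = 0.23). The Zfp352/Zfp353-DKO call was lost when Zfp352/Zfp353-DKO replicate 1 (adjusted p = 0.14) or 2 (0.089), Zfp352-KO replicate 2 (0.066) or Parental replicate 1 (0.15) or 2 (0.17) was left out, within a range of 0.00058 to 0.18 over all alternatives. With the trend on transcript length and GC content removed, Itgb1 was called lower in Zfp352-KO cells too (log2 fold change -0.15, edgeR adjusted p = 0.019, range 0.019 to 0.61 over the alternatives). Between Zfp352/Zfp353-DKO and Zfp352-KO cells its log2 fold change was -0.07 ± 0.05 (SE, 95% interval -0.18 to 0.03, edgeR adjusted p = 0.90).

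Itga6 encodes α6, a laminin receptor subunit that pairs with β1 or β4 and is used as a surface marker of stem cells. It had 40.2, 43.45 and 49.5 TPM in Zfp352/Zfp353-DKO libraries, 48.9, 46.6 and 42.8 TPM in Zfp352-KO libraries and 40.7, 39.7 and 43.9 TPM in Parental libraries, and the 3 genotypes overlapped. Its log2 fold change against Parental was 0.06 in Zfp352/Zfp353-DKO (95% interval -0.06 to 0.17) and 0.11 in Zfp352-KO cells (95% interval -0.01 to 0.22), and neither passed the test. Beside the fall of Itga3, the order of these 2 laminin-binding α subunits differed between genotypes. The ratio of Itga3 to Itga6 TPM was 0.776, 0.754 and 0.595 in Zfp352/Zfp353-DKO libraries, 0.752, 0.813 and 0.878 in Zfp352-KO libraries, against 1.14, 1.12 and 1.09 in Parental libraries. Itga3 was thus the leading α transcript in all 3 Parental libraries, and Itga6 in all 6 edited libraries. With 3 libraries against 3, an exact permutation test of such a ratio cannot go below p = 0.10, so none was run.

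The 6 α genes summed to 118 ± 6.90 TPM in Zfp352/Zfp353-DKO, 127 ± 3.33 TPM in Zfp352-KO and 129 ± 7.11 TPM in Parental libraries (SD, n = 3 each), with overlapping ranges. Itga3 made up 26.4 ± 2.47% of that sum in Zfp352/Zfp353-DKO, 29.4 ± 1.10% in Zfp352-KO and 35.9 ± 0.80% in Parental libraries. Itga9 made up 6.49 ± 0.30% in Zfp352/Zfp353-DKO, 5.70 ± 0.09% in Zfp352-KO and 4.21 ± 0.06% in Parental libraries, and these shares overlapped between no 2 genotypes. Itga6 made up 37.4 ± 1.89% in Zfp352/Zfp353-DKO, 36.2 ± 1.47% in Zfp352-KO and 32.2 ± 0.26% in Parental libraries. The 4 β genes summed to 136 ± 8.70 TPM in Zfp352/Zfp353-DKO, 141 ± 4.57 TPM in Zfp352-KO and 146 ± 0.22 TPM in Parental libraries, and Itgb1 made up 79.9 ± 1.23% of it in Zfp352/Zfp353-DKO, 81.3 ± 1.46% in Zfp352-KO and 81.4 ± 1.05% in Parental libraries. The ratio of the α sum to Itgb1 was 1.09 ± 0.02 in Zfp352/Zfp353-DKO, 1.11 ± 0.03 in Zfp352-KO and 1.08 ± 0.08 in Parental libraries, which overlapped in all 3 genotypes.

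**Figure D3:**
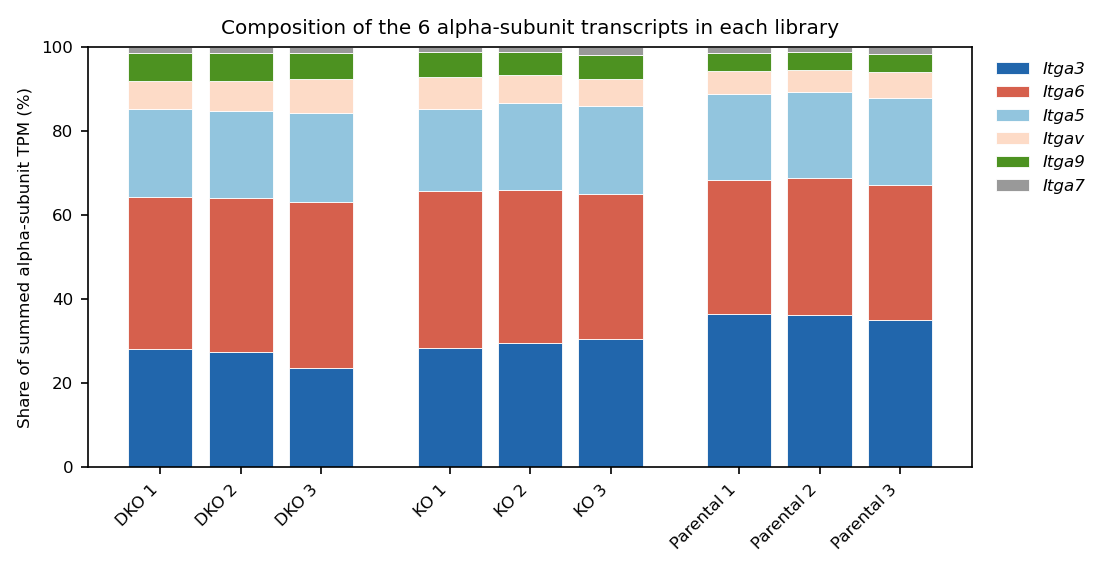
Share of the summed TPM of the 6 α-subunit genes taken by each gene, as stacked bars for each of the 9 libraries, Zfp352/Zfp353-DKO (DKO), Zfp352-KO (KO) and Parental from left to right. Itga3 takes 23.5 to 28.1% in Zfp352/Zfp353-DKO, 28.3 to 30.4% in Zfp352-KO and 35.0 to 36.5% in Parental libraries.

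Itga5 and Itgav encode the α subunits that bind fibronectin and other proteins through the RGD motif, and neither was called. Itga5, whose α5β1 receptor binds fibronectin, had 23.3, 24.65 and 26.5 TPM in Zfp352/Zfp353-DKO libraries, 25.1, 26.5 and 25.6 TPM in Zfp352-KO libraries and 26.1, 25.1 and 28.2 TPM in Parental libraries. Its log2 fold change against Parental was -0.13 in Zfp352/Zfp353-DKO cells (95% interval -0.24 to -0.02, edgeR adjusted p = 0.13) and -0.08 in Zfp352-KO cells (95% interval -0.19 to 0.03, edgeR adjusted p = 0.38). Itgav, which also binds vitronectin, had 7.56, 8.51 and 10.25 TPM in Zfp352/Zfp353-DKO libraries, 10.2, 8.45 and 8.20 TPM in Zfp352-KO libraries and 6.91, 6.42 and 8.24 TPM in Parental libraries. The genotypes overlapped in TPM, though in TMM-scaled CPM the Zfp352-KO libraries lay above those of Parental. The log2 fold change was 0.24 ± 0.09 (SE, edgeR adjusted p = 0.11) in Zfp352/Zfp353-DKO cells and 0.26 ± 0.09 (SE, edgeR adjusted p = 0.087) in Zfp352-KO cells. Itgav was called higher in Zfp352-KO cells in 4 of 18 alternatives (no filter on low counts, only the 6 libraries compared, and without Zfp352/Zfp353-DKO or Parental replicate 3), and in Zfp352/Zfp353-DKO cells with no filter and without Zfp352/Zfp353-DKO replicate 1. Long transcripts as a group stood high in some libraries. Across 14300 genes, the Spearman correlation of transcript length with a gene's deviation from its own mean was 0.362 in Zfp352/Zfp353-DKO replicate 3 and 0.391 in Zfp352-KO replicate 1, the 2 libraries with the highest Itgav, and -0.402 in Parental replicate 2, the lowest. Itgav is 7055 bases long. With the trend on transcript length and GC content removed, its log2 fold change was 0.15 in Zfp352/Zfp353-DKO cells (edgeR adjusted p = 0.13) and 0.13 in Zfp352-KO cells (edgeR adjusted p = 0.26), and it was not called in either. The part of transcript length in the Itgav values was not tested.

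Itgb5 and Itgb3 encode partners of αv in vitronectin and fibronectin receptors. Itgb5 had 19.6, 20.2 and 19.4 TPM in Zfp352/Zfp353-DKO libraries, 17.5, 17.5 and 20.8 TPM in Zfp352-KO libraries and 19.5, 18.9 and 21.2 TPM in Parental libraries. Itgb3 had 3.82, 3.46 and 4.06 TPM in Zfp352/Zfp353-DKO, 4.21, 4.05 and 3.99 TPM in Zfp352-KO and 3.39, 3.61 and 3.78 TPM in Parental libraries. Itgb4, the hemidesmosome partner of α6, had 3.62, 3.52 and 3.83 TPM in Zfp352/Zfp353-DKO, 3.8, 3.67 and 3.5 TPM in Zfp352-KO and 3.83, 3.54 and 3.88 TPM in Parental libraries. All 3 Zfp352-KO libraries of Itgb3 lay above its Parental libraries. Itgb5, Itgb3 and Itgb4 were not called in either comparison with Parental, and their log2 fold changes lay between -0.13 and 0.14. Without Zfp352-KO replicate 3, the highest Itgb5 library of that genotype, Itgb5 was called lower in Zfp352-KO cells (-0.23, edgeR adjusted p = 0.042, range 0.042 to 0.68 over the alternatives). Itga7, the laminin receptor subunit best known from muscle, had 1.51 to 1.80 TPM in Zfp352/Zfp353-DKO, 1.45 to 2.25 TPM in Zfp352-KO and 1.60 to 2.38 TPM in Parental libraries. Its 95% interval against Parental, -0.63 to 0.12 in Zfp352/Zfp353-DKO cells, was the widest of the 10. Itgb4 and Itga7 each overlap a protein-coding neighbour in the annotation (Galk1 and Mettl7b).

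Per length, the order of transcripts in Parental cells was Itgb1, Itga3, Itga6, Itga5, Itgb5, Itgav, Itga9, Itgb4, Itgb3, Itga7. Itgb4 and Itgb3 were the only neighbours in that order whose libraries overlapped. In Zfp352/Zfp353-DKO and Zfp352-KO cells Itga6 stood above Itga3, and the rest kept their places but for Itgb3 and Itgb4, whose Zfp352/Zfp353-DKO libraries overlapped. Itgav and Itga9 also overlapped in Zfp352/Zfp353-DKO libraries.

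Outside the 10 genes, 17 further integrin subunits were in the table and 10 passed the filter. Of the 10 that passed, 1 was called against Parental in each edited genotype. Over all tested genes, 8.47% were called in Zfp352/Zfp353-DKO and 7.06% in Zfp352-KO cells. Itgb7, the partner of α4 and αE known from lymphocytes, averaged 24.7 ± 0.22 TPM in Zfp352/Zfp353-DKO, 25.1 ± 0.22 TPM in Zfp352-KO and 27.0 ± 0.24 TPM in Parental cells (SD, n = 3 each), which in every genotype is above Itgb5 and the 5 less abundant members. Its libraries in the edited genotypes lay below those of Parental, yet it was not called, with a log2 fold change of -0.17 ± 0.06 (SE, edgeR adjusted p = 0.072) in Zfp352/Zfp353-DKO and -0.15 ± 0.06 (SE, edgeR adjusted p = 0.10) in Zfp352-KO cells. Itga1, a collagen receptor subunit, was called lower in both, with -0.72 ± 0.20 in Zfp352/Zfp353-DKO (SE, edgeR adjusted p = 0.034) and -0.68 ± 0.20 in Zfp352-KO cells (SE, edgeR adjusted p = 0.047). It had 0.47 to 0.82 TPM in Zfp352/Zfp353-DKO, 0.54 to 0.72 TPM in Zfp352-KO and 0.85 to 1.14 TPM in Parental libraries. Both Itga1 calls were lost with DESeq2 and with limma. The Zfp352/Zfp353-DKO call was also lost without Zfp352/Zfp353-DKO replicate 1 or 2 or Parental replicate 1 or 3 (adjusted p up to 0.16), and the Zfp352-KO call without Zfp352/Zfp353-DKO replicate 2, Zfp352-KO replicate 1 or 2 or any Parental replicate (adjusted p up to 0.21). Itga4, the α4 fibronectin receptor subunit, had log2 fold changes of 0.63 ± 0.24 in Zfp352/Zfp353-DKO (SE, edgeR adjusted p = 0.12) and 0.69 ± 0.24 in Zfp352-KO cells (SE, edgeR adjusted p = 0.084). The other 7 tested genes (Itga2b, Itga8, Itga10, Itgae, Itgal, Itgam and Itgb2) were not called, and the most abundant of them, Itgal, had 3.31 ± 0.36 TPM in Zfp352/Zfp353-DKO, 3.23 ± 0.22 TPM in Zfp352-KO and 3.17 ± 0.22 TPM in Parental cells.

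Genes that act with integrins were read from lists of ligands, adaptors, regulators and partners. Of 24 tested ligands and matrix proteins, 2 rose and 11 fell in Zfp352/Zfp353-DKO against Parental cells, and 1 rose and 10 fell in Zfp352-KO cells. Over all tested genes, 3.65% rose and 4.82% fell in Zfp352/Zfp353-DKO cells, and 3.43% rose and 3.64% fell in Zfp352-KO cells. The median log2 fold change of the list was -0.27 in Zfp352/Zfp353-DKO and -0.16 in Zfp352-KO cells. Among those with the smallest adjusted p were Thbs1, Col1a1, Col1a2, Cyr61 and Ctgf. Thbs1 encodes thrombospondin 1, an adhesive glycoprotein, and had 7.05 to 8.02 TPM in Zfp352/Zfp353-DKO libraries, 11.1 to 12.1 TPM in Zfp352-KO libraries and 16.9 to 19.9 TPM in Parental libraries. Its log2 fold change was -1.28 ± 0.07 (SE, edgeR adjusted p = 9.9e-10) in Zfp352/Zfp353-DKO and -0.66 ± 0.06 in Zfp352-KO cells. The collagen I chains Col1a1 and Col1a2, which are also fibroblast markers on the list above, fell by 1.66 and 1.27 in Zfp352/Zfp353-DKO and by 1.15 and 0.65 in Zfp352-KO cells on the log2 scale. Cyr61 and Ctgf, matricellular proteins that bind integrins, fell by 1.06 and 0.57 in Zfp352/Zfp353-DKO and by 0.78 and 0.44 in Zfp352-KO cells. Between Zfp352/Zfp353-DKO and Zfp352-KO cells 2 of 24 ligand genes fell, Thbs1 by 0.62 and Col1a2 by 0.62, where 0.105% of all tested genes were called. With limma both calls were lost (adjusted p = 0.063 for Thbs1 and 0.15 for Col1a2), and the Col1a2 call was also lost when the 6 libraries compared were fitted alone or when Zfp352/Zfp353-DKO replicate 1 or 2 or Zfp352-KO replicate 3 was left out. The fibroblast marker sums given above stood in the same order of genotypes, and their part in these results was not tested.

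Some ligands were named after their values were seen. Tnc, which encodes tenascin-C, an α9β1 ligand, had 0.58 to 0.65 TPM in Zfp352/Zfp353-DKO, 0.70 to 1.44 TPM in Zfp352-KO and 1.53 to 1.86 TPM in Parental libraries. It fell by 1.45 in Zfp352/Zfp353-DKO (edgeR adjusted p = 0.00016) and by 0.77 in Zfp352-KO cells (edgeR adjusted p = 0.022) on the log2 scale. The Zfp352-KO call of Tnc was lost without Zfp352-KO replicate 1 or 2 or any 1 Parental replicate. Spp1, which encodes osteopontin and was at 276 ± 13.6 TPM in Zfp352/Zfp353-DKO, 262 ± 3.18 TPM in Zfp352-KO and 236 ± 5.90 TPM in Parental cells, rose by 0.18 in Zfp352/Zfp353-DKO cells. The Spp1 call was lost when Zfp352/Zfp353-DKO replicate 2 or 3 or Parental replicate 1 or 3 was left out. Lama1, the α1 chain of laminin-111, rose by 0.37 in Zfp352/Zfp353-DKO cells (edgeR adjusted p = 0.0041), and Lamc1 and Lama5, chains of the abundant laminin-511, had log2 fold changes of 0.03 and -0.08 there and were not called. Fn1, fibronectin itself, was at 299 ± 23.9 TPM in Zfp352/Zfp353-DKO, 314 ± 36.4 TPM in Zfp352-KO and 262 ± 25.4 TPM in Parental cells. It was called higher in Zfp352-KO (0.22 ± 0.06, SE, edgeR adjusted p = 0.045), and that call was lost when Zfp352/Zfp353-DKO replicate 2, Zfp352-KO replicate 1 or 2 or Parental replicate 1 or 2 was left out.

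**Figure D4:**
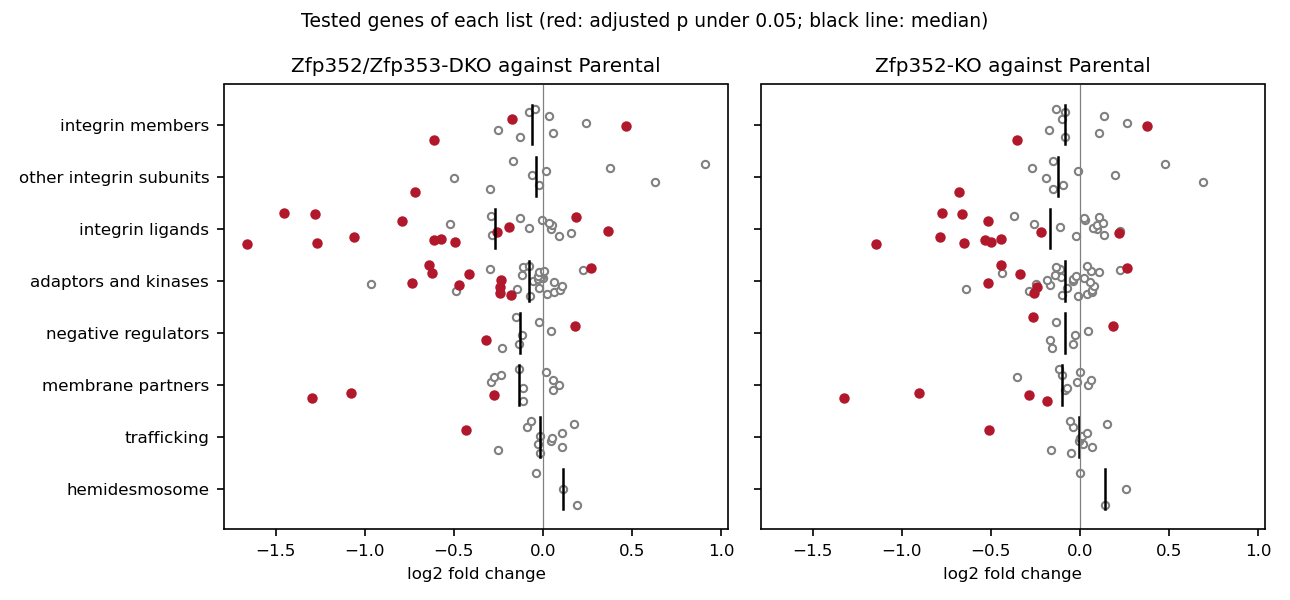
Log2 fold change of each tested gene in 8 lists of integrin and integrin-related genes, with Zfp352/Zfp353-DKO against Parental on the left and Zfp352-KO against Parental on the right. Red points have an adjusted p under 0.05, open points do not, and black lines are list medians, which are -0.27 and -0.16 for the ligand list. Called ligands lie mostly below 0 in both panels.

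Of 32 tested adaptors and kinases that sit on the cytoplasmic side of integrins, 1 rose and 9 fell in Zfp352/Zfp353-DKO cells, and 1 rose and 5 fell in Zfp352-KO cells, beside 3.65% and 4.82% of all tested genes in Zfp352/Zfp353-DKO and 3.43% and 3.64% in Zfp352-KO cells. Zyx (zyxin, an adaptor of mature focal adhesions) fell by 0.64 in Zfp352/Zfp353-DKO and by 0.44 in Zfp352-KO cells on the log2 scale. Parva (α-parvin, which binds integrin-linked kinase) fell by 0.74 in Zfp352/Zfp353-DKO and by 0.51 in Zfp352-KO cells, and the scaffold gene Bcar1 fell by 0.24 in Zfp352/Zfp353-DKO and by 0.25 in Zfp352-KO cells. Lpp, a zyxin relative, fell by 0.47 and Tgfb1i1, a paxillin relative, by 0.63 in Zfp352/Zfp353-DKO cells. Tns3, a tensin, rose by 0.27 in Zfp352/Zfp353-DKO and by 0.26 in Zfp352-KO cells. Tln1 and Fermt2, the talin and kindlin that switch integrins on, were named for their roles after values were seen. They had log2 fold changes of -0.02 and 0.09 in Zfp352/Zfp353-DKO and 0.11 and 0.07 in Zfp352-KO cells, and were not called. Bcar1, Ilk, Parva, Tes and Zyx were the 5 that fell in Zfp352-KO cells. The number that fell in Zfp352/Zfp353-DKO cells was 5 when Parental replicate 1 was left out, and the number in Zfp352-KO cells was 2 without Zfp352-KO replicate 2. It was 3 without Zfp352-KO replicate 1 or without Parental replicate 1 or 2. The Tns3 and Tgfb1i1 calls in Zfp352/Zfp353-DKO cells were lost when Parental replicate 1 was left out, and the Zfp352-KO call of Bcar1 without Zfp352-KO replicate 2, of Parva without Parental replicate 1, and of Tns3 without Zfp352-KO or Parental replicate 1 or 2. Of Ilk, which encodes integrin-linked kinase, it was lost without Zfp352-KO replicate 1 or 2 or Parental replicate 2 or 3, and of Tes (testin) without Zfp352/Zfp353-DKO replicate 2 or Zfp352-KO or Parental replicate 1 or 2.

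Among 13 membrane partners, 3 fell in Zfp352/Zfp353-DKO and 4 in Zfp352-KO cells, beside 4.82% of all tested genes in Zfp352/Zfp353-DKO and 3.64% in Zfp352-KO cells. Cav1 (caveolin 1) fell by 1.3 in Zfp352/Zfp353-DKO and by 1.32 in Zfp352-KO cells on the log2 scale, and Cd44, the hyaluronan receptor, by 1.08 in Zfp352/Zfp353-DKO and by 0.90 in Zfp352-KO cells. Cd151, the tetraspanin that binds α3β1 and α6β4, fell by 0.27 in Zfp352/Zfp353-DKO and by 0.29 in Zfp352-KO cells. Bsg (basigin), named after its values were seen, fell by 0.18 in Zfp352-KO cells. Cd151 averaged 36.9 ± 1.41 TPM in Zfp352/Zfp353-DKO, 36.6 ± 1.42 TPM in Zfp352-KO and 43.4 ± 3.05 TPM in Parental cells (SD, n = 3 each), while Cd44 and Cav1 were under 3 TPM in every library. The Zfp352/Zfp353-DKO calls of Cd44 and Cd151 (edgeR adjusted p = 0.0503 for each) were lost when Zfp352/Zfp353-DKO replicate 2 was left out, and the count there was then 1. The count in Zfp352-KO cells was 2 without Zfp352-KO or Parental replicate 1 or 2. The Zfp352-KO call of Cd44 was lost when any Zfp352-KO or Parental replicate was left out, and that of Bsg without Zfp352/Zfp353-DKO replicate 2 or Zfp352-KO or Parental replicate 1 or 2.

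Of 12 genes of integrin trafficking, 1 was called in each edited genotype. Over all tested genes, 8.47% were called in Zfp352/Zfp353-DKO and 7.06% in Zfp352-KO cells. The called gene was Rab25, a GTPase that recycles α5β1, which fell by 0.44 in Zfp352/Zfp353-DKO and by 0.51 in Zfp352-KO cells. Its Zfp352/Zfp353-DKO call was lost without Zfp352/Zfp353-DKO or Parental replicate 1, and with the trend on transcript length and GC content removed. Among 8 genes listed as negative regulators, 1 rose and 1 fell in each edited genotype. Over all tested genes, 3.65% rose and 4.82% fell in Zfp352/Zfp353-DKO, and 3.43% rose and 3.64% fell in Zfp352-KO cells. Kank2 rose by 0.18 in Zfp352/Zfp353-DKO and by 0.18 in Zfp352-KO cells on the log2 scale. Spry1, named after its values were seen, fell by 0.26 in Zfp352-KO cells. Their place on the list does not show how either gene acts on integrins in these cells. The Zfp352/Zfp353-DKO call of Kank2 was lost without any 1 Zfp352/Zfp353-DKO replicate or Parental replicate 1 or 2, and its Zfp352-KO call without Zfp352/Zfp353-DKO replicate 2 or Zfp352-KO or Parental replicate 1 or 2. The Spry1 call was lost without Zfp352/Zfp353-DKO replicate 2 or any 1 Zfp352-KO or Parental replicate. The hemidesmosome genes Plec, Dst and Col17a1 had log2 fold changes of -0.04, 0.11 and 0.19 in Zfp352/Zfp353-DKO and 0.0034, 0.26 and 0.14 in Zfp352-KO cells. The edgeR test, DESeq2 and limma called 0 of these 3, Dst in Zfp352-KO cells had an unadjusted p under 0.05, and 1 of the 3 was called higher in Zfp352-KO cells without replicate 3 of any 1 genotype.

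The 5 tested genes whose level was most like that of Itga3 over the 9 libraries were Lgals1, Unc5b, Crb3, Fzd2 and Vim. Likeness is the root mean square difference of centred log2 CPM, and it was 0.0396, 0.0564, 0.0585, 0.0610 and 0.0631, where Itga3 itself varied by 0.257 around its mean. Lgals1 encodes galectin 1, Unc5b a netrin receptor, Crb3 a polarity protein of the apical membrane, Fzd2 a Wnt receptor and Vim the intermediate filament protein vimentin. They averaged 236, 10.3, 17.8, 7.65 and 106 TPM in Zfp352/Zfp353-DKO cells, 274, 11.99, 20.3, 9.65 and 127 TPM in Zfp352-KO cells and 332, 14.6, 24.9, 10.97 and 153 TPM in Parental cells. They were chosen for this pattern, so their changes are described and not tested.

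**Figure D5:**
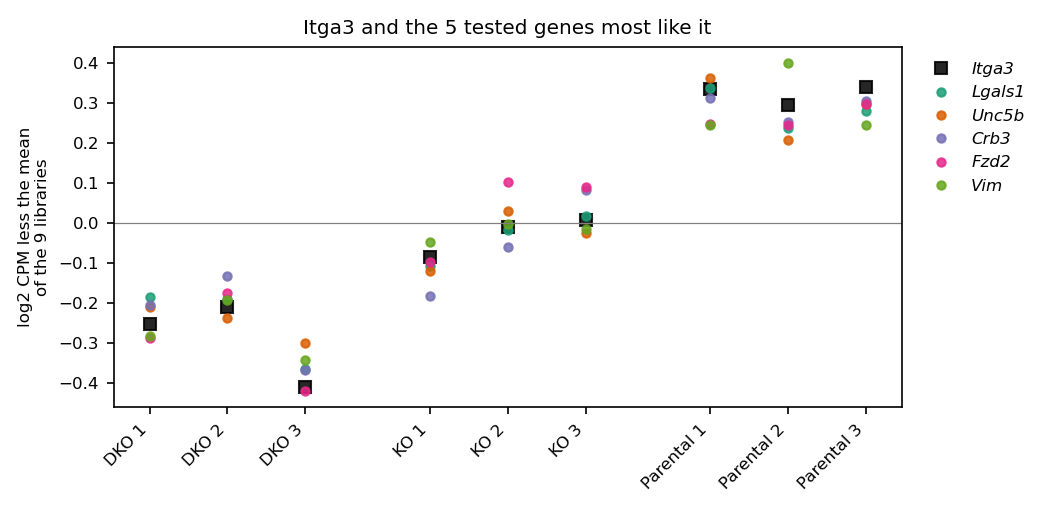
Log2 CPM less its mean over the 9 libraries (vertical axis) for Itga3 (black squares) and the 5 genes most like it (coloured points), for Zfp352/Zfp353-DKO (DKO), Zfp352-KO (KO) and Parental libraries from left to right. All 6 genes lie below 0 in Zfp352/Zfp353-DKO libraries and above 0 in Parental libraries.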

How the data were processed

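Stranded polyadenylated-RNA libraries (TruSeq) were read as single ends of 75 bases on an Illumina NextSeq, per the labels' protocols. The submitters' processing notes name RSEM 1.3.3, STAR 2.7.8a, Trim Galore 0.6.6 and the build mm10. Settings, annotation release and strand use: not given in the sources used here. The deposited tables hold, per the file headers, the authors' expected counts, TPM and transcript length in bases for 24411 genes. 9.27% of expected counts were not whole, since RSEM divides shared reads. Levels are TPM and lengths are isoform-weighted, both as deposited.

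Rounded expected counts went into edgeR 4.0.16 (R 4.3.3) with TMM factors and filterByExpr; a single fit by genotype held the 9 libraries, and two-sided quasi-likelihood p-values were adjusted over 14300 genes. The common biological coefficient of variation was 4.95%. Standard errors come from the F statistic. The fit was tested on simulated data. Alternatives were DESeq2 1.42.0, its size factors, limma 3.58.1 on log2(TPM + 1), no filter, a CPM filter of 1 in 3 libraries, a replicate block, removal of the trend on length and GC content, 6 libraries per comparison, a threshold of 0.01 and each library left out. Within a genotype, chi-square over degrees of freedom was 2.49 to 6.90 between libraries, above sampling noise.

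The members and lists were chosen with earlier results of these data known. Named were all members, for each list the called genes (at most 6) with the lowest adjusted p in Zfp352/Zfp353-DKO against Parental, further tested integrin subunits, and the 5 genes most like the called member that changed most; some genes the rule names are not reported here. Coordinates and promoters are from RefSeq (GRCm38.p6) and are 1-based.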

Additional observations from a re-analysis of the deposited data

How the results depend on the processing

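Itga3 and Itga9 kept their direction and calls against Parental in both edited genotypes under all 18 alternatives. The number of members called was 2 to 4 in Zfp352/Zfp353-DKO against Parental and 2 to 3 in Zfp352-KO against Parental, where the third was Itgav, Itgb1 with the trend on length and GC content removed, or Itgb5 without Zfp352-KO replicate 3. In Zfp352/Zfp353-DKO against Parental, Itgb1 was lost and the count was 2 with limma, a threshold of 0.01 and the replicate block, and it was 4, with Itgav, with no filter. In Zfp352/Zfp353-DKO against Zfp352-KO the count was 1 (Itga3) instead of 0 with DESeq2, with no filter and with the trend on length and GC content removed, and 0 with each library left out; the cause was not tested. Same-numbered libraries correlated at -0.077 to 0.106, so no pairing by replicate number was seen. These correlations cannot exclude one, since the deviations also carry each library's own trend on transcript length. The replicate block gave 2 instead of 3 members called in Zfp352/Zfp353-DKO against Parental (edgeR adjusted p for Itgb1 0.073).

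Log2 fold changes of members that were not called turned sign as follows. With the trend on length and GC content removed, Itgb5 was 0.012 in Zfp352/Zfp353-DKO against Parental and Itgav was 0.022 in Zfp352/Zfp353-DKO against Zfp352-KO. With limma, Itgb4 was -4.77e-05 in Zfp352/Zfp353-DKO against Zfp352-KO. With a library left out, Itga6 had -0.00495 to 0.113 and Itgb3 -0.00635 to 0.0942 in Zfp352/Zfp353-DKO against Parental, and Itga6 had -0.111 to 0.00191, Itgav -0.12 to 0.0642, Itgb4 -0.0114 to 0.0195 and Itga7 -0.223 to 0.151 in Zfp352/Zfp353-DKO against Zfp352-KO.

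Over all genes, the numbers called varied more. Outside the single-library omissions, 134 to 800 genes were higher and 333 to 804 lower in Zfp352/Zfp353-DKO against Parental, against 522 and 689 in the fit reported. In Zfp352-KO against Parental these were 73 to 843 and 184 to 637, against 490 and 520. In Zfp352/Zfp353-DKO against Zfp352-KO they were 0 to 22 and 1 to 46, against 2 and 13. With the trend on length and GC content removed, 765 were higher and 629 lower in Zfp352/Zfp353-DKO against Parental. With limma, 5 ligands fell in Zfp352-KO instead of 10, and 5 adaptors fell in Zfp352/Zfp353-DKO cells instead of 9 and 2 in Zfp352-KO cells instead of 5. Other calls of named list genes were lost as follows. With limma these were Lpp, Lama1, Kank2 and Cd151 in Zfp352/Zfp353-DKO against Parental, and Parva, Tns3, Kank2, Cd44, Cd151, Bsg, Fn1, Ilk, Spry1, Tes and Tnc in Zfp352-KO against Parental. With the trend on length and GC content removed these were Bcar1, Bsg, Ilk and Spry1, and with DESeq2 Spry1 and Tes, in Zfp352-KO against Parental. The replicate block ended the calls of Kank2 in both comparisons with Parental and of Itga1, Bsg, Fn1 and Spry1 in Zfp352-KO, and the CPM filter that of Fn1. Among the cell type markers named, the Zfp352-KO calls of Acta2 and Nes were lost with limma. Depth limits the low genes: Itga1 rests on 28 to 81 expected counts per library, and Itga7 has the widest interval of the members.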
